A study of Mus musculus with 6 samples.

Results

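The replication-dependent histone genes were taken as all genes whose symbol names one of the 4 mouse histone clusters (Hist1h to Hist4h) and that had at least 10 counts in total over the 6 libraries. The rule found 65 of 15845 genes in the count table. Of these, 55 carried such a symbol in the authors' deposited table and 10 were recognised by an older symbol in RefSeq. By class there were 5 linker histone H1 genes, 16 H2A, 19 H2B, 12 H3 and 13 H4. By cluster there were 52 genes in cluster 1, 9 in cluster 2, 3 in cluster 3 and 1 in cluster 4.

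RNA was sequenced from LSK cells (lineage-negative, Sca1-positive, c-Kit-positive), the bone marrow fraction that holds blood stem cells and early multipotent progenitors. All mice were C57BL/6 and Mx1Cre; Jak2VF/VF, so vehicle and treated mice alike carried 2 copies of the V617F allele of the JAK2 kinase together with Cre recombinase from the interferon-responsive Mx1 promoter. Vehicle mice received PBS and treated mice TP-3654, an inhibitor of PIM kinases, at 150 mg/kg/day for 6 weeks, with 3 biological replicates in each group. Cells were lineage depleted on magnetic beads and sorted, and RNA with a poly(A) tail was selected for the libraries. Age and sex are not in the labels, and no group without the Jak2 allele or without Cre is part of the comparison.

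Replication-dependent histones package newly copied DNA, and their genes are transcribed in S phase from clusters held near the nuclear factor NPAT. Normally the genes have no introns and their mRNAs no poly(A) tail. The 3′ end is instead cut just behind a stem-loop that is bound by the stem-loop binding protein SLBP, and the mRNA is degraded when DNA synthesis stops. Some of these genes also give polyadenylated transcripts, which a poly(A) selection retains. The histone counts of these libraries are therefore counts of what passed that selection, not of all histone mRNA in the cells.

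The stem-loop was looked for because it marks the normal 3′ end of these mRNAs. GENCODE transcripts of GRCm38 were present for 64 of the 65 genes, and 43 held, within 100 bases of the stop codon, a stem of 6 bases beginning GG, a loop of 4 bases beginning T, and the complementary stem. It began 21 to 58 bases after the stop codon, with a median of 31. There were 8 forms, given here 5′ to 3′ as DNA letters with the stem arms in capitals:
24 genes of H1, H2A, H2B and H3: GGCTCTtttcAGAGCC
5 genes of H2B and H3: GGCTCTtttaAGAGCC
Hist1h3g: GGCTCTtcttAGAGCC
Hist2h2ac: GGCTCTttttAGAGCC
7 genes of H4: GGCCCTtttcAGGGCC
Hist1h4i and Hist2h4: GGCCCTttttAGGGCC
Hist1h4b and Hist1h4j: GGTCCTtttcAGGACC
Hist1h4a: GGCCCTtctcAGGGCC
All 4 stem-loop forms with the arms GGCTCT and AGAGCC came from H1, H2A, H2B or H3 genes, and the other 4 forms came from H4 genes.

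Promoters differed by class as well. Upstream sequence was in the RefSeq table (GRCm38.p6) for 58 of the 65 genes, and 4 motifs were searched on both strands in the 250 bases before the start. The motifs were the TATA box TATAAA, the CCAAT box CCAAT, the octamer ATTTGCAT bound by the POU factor OCT1, and GGTCCG, the core of the H4 element bound by HINFP. The reverse of GGTCCG ends in CC and can run into a CCAAT box. A gene was counted if any of its promoters held the motif. CCAAT was found in 47 of 58 histone genes (81.0%) against 37.5% of all 27025 genes with such sequence, and TATAAA in 28 (48.3%) against 14.3%. The octamer was found in 13 (22.4%) against 1.81% of all these genes, and all 13 were H2A or H2B genes. GGTCCG was found in 11 (19.0%) against 7.69%, and 9 of the 11 were H4 genes. The 130 bases before the start of 5 genes show these arrangements, with the matches in capitals. A match describes the letters and is not evidence of a bound site.
Hist1h1e, chr13:23622559-23622688, minus strand: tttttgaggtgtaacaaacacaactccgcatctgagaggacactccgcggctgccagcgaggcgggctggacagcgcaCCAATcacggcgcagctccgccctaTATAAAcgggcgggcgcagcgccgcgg
Hist1h2bg, chr13:23571270-23571399, plus strand: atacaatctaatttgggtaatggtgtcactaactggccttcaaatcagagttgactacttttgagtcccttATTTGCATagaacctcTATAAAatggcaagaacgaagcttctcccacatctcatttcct
Hist1h3e, chr13:23562386-23562515, minus strand: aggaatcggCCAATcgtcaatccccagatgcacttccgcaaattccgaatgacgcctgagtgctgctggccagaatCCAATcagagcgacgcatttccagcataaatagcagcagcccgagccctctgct
Hist1h4d, chr13:23581438-23581567, plus strand: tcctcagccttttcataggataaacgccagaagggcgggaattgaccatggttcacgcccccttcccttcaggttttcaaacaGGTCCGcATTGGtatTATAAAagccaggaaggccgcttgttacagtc
Hist1h4i, chr13:22041363-22041492, minus strand: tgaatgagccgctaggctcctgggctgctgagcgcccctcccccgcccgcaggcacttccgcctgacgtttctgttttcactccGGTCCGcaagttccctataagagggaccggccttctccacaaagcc

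The histone genes were rare in every library. Library totals ran from 20582057 to 25315596 counts, and the 65 genes together held 4877, 4196 and 6403 counts in vehicle replicates 1 to 3 and 2454, 3971 and 1978 in TP-3654 replicates 1 to 3. This was 0.00961% to 0.0288% of a library. Levels are given in CPM, counts on library sizes scaled by TMM factors, on which 3 counts were worth 0.119 to 0.146. TP-3654 replicate 3 stood apart from its group, with a chi-square per gene of 100.4 and 116.7 against replicates 1 and 2, which differed from each other by 17.5. Vehicle pairs lay between 24.1 and 55.5.

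Summed over the 65 genes, histone counts stood at 192.2, 188.9 and 293.4 CPM in the vehicle libraries and at 113.5, 153.7 and 101.1 CPM in the TP-3654 libraries. All 3 treated libraries lay below all 3 vehicle libraries. The means were 225 ± 59.4 and 123 ± 27.5 CPM (SD, n = 3), a 1.83-fold lower level with TP-3654, or -0.87 on the log2 scale. Vehicle replicate 3 was the highest library, and without it the log2 ratio was -0.63. In bulk RNA of this kind, fewer cells in S phase and less histone RNA per cell cannot be told apart.

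No single histone gene passed the adjusted test. In edgeR's quasi-likelihood fit, 0 of the 61 genes tested were called at a false discovery rate (FDR) under 0.05 in either direction, as were 0.0% of all 13149 genes tested. The smallest FDR was 0.099, for Hist1h3e. At an unadjusted p under 0.05, 33 of the 61 were lower with TP-3654 and 0 higher, beside 6.84% of all genes lower and 10.2% higher. Without vehicle replicate 3 the 33 became 10, beside 5.31% of all genes. Without TP-3654 replicate 1 they became 15, beside 6.38% of all genes. The p-values measure only the spread between these 3 libraries a group.

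The direction was shared across almost all of the genes. Of the 61 tested, 60 had a log2 fold change below 0, beside 47.9% of all genes, and the median was -1.08 against 0.01 over all genes tested. A change below -1 was seen in 34 of 61 and one above 1 in 0, beside 2.07% and 3.14% of all genes. The groups did not overlap for 27 of the 61, all lower with TP-3654, beside 11.6% of all genes. Over all 65 genes without the filter on low counts, the TP-3654 mean was lower in 63, beside 47.7% of all genes with at least 10 counts. Hist2h2be and Hist3h2bb were the exceptions. Fitted without that filter, 36 of the 65 were lower and 0 higher at an unadjusted p under 0.05, beside 6.47% and 9.27% of all genes, and 0 were called by edgeR. Vehicle replicate 3 held the highest level of 56 of the 65 genes. The lowest level was in TP-3654 replicate 3 for 38, in TP-3654 replicate 1 for 24 and in a vehicle library for 3. TP-3654 replicate 2 was the lowest library for 0 of the 65. Without vehicle replicate 3 the median over the tested genes was -0.68.

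DESeq2 on the same genes called 5 histone genes lower and 0 higher at an adjusted p under 0.05, beside 1.98% of all genes lower and 3.04% higher. They were Hist1h2bc, Hist1h2ao, Hist1h3e, Hist1h4i and Hist1h4d, with DESeq2 adjusted p-values between 0.0174 and 0.0471. The authors' deposited table lists 57 histone genes and has 2 of them lower at an adjusted p under 0.05, beside 2.48% of all its genes. These were Hist1h2bc (adjusted p = 0.0150 in the authors' deposited table) and Hist1h3e (adjusted p = 0.0410 there). The authors' deposited table has 30 histone genes lower and 0 higher at a raw p under 0.05, beside 10% and 9.09% of all its genes.

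**Figure D1:**
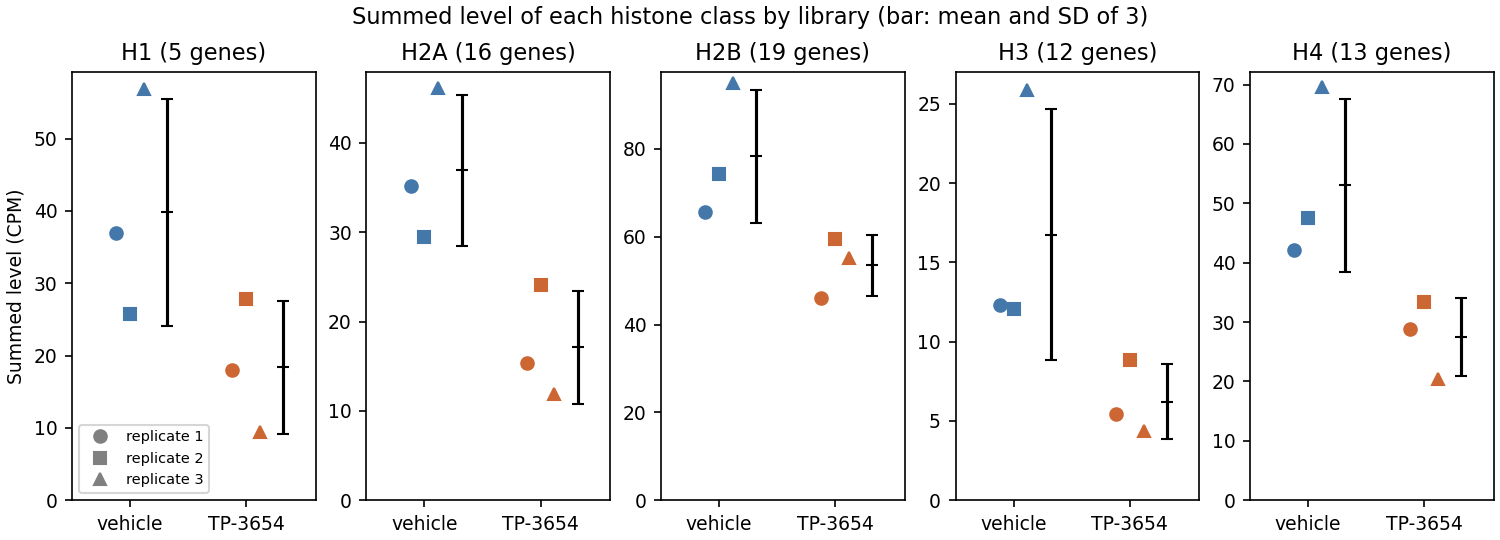
Summed level of each histone class in CPM (y axis, from 0, own scale per panel) in the 3 vehicle and 3 TP-3654 libraries, with marker shape for the replicate and bars for the mean and SD of 3. The groups overlap in H1 and in no other class, and vehicle replicate 3 is the highest library in all 5 panels.

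The core nucleosome histones H2A, H2B, H3 and H4, summed by class, were each lower in all 3 treated libraries than in all 3 vehicle libraries. The linker histone H1, which binds DNA where it enters and leaves the nucleosome, overlapped between groups. A sum by class is less open than a single gene to reads that fit several near-identical copies. The ratio of the group means was 2.69-fold for H3, 2.17-fold for H1, 2.16-fold for H2A, 1.93-fold for H4 and 1.46-fold for H2B. No test of the difference between classes was made. Beside the counts by class, cluster and subset below, 6.84% of all genes were lower at an unadjusted p under 0.05.

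The sum of the H3 genes stood at 12.3, 12.1 and 25.9 CPM in the vehicle libraries and at 5.46, 8.86 and 4.34 CPM with TP-3654. The groups did not overlap, although vehicle replicate 3 lay far above the other vehicle libraries. Of 11 H3 genes tested, all had a log2 fold change below -1, the median was -1.33, and 10 were lower at an unadjusted p under 0.05. This was the lowest class median with all 6 libraries, but the order of the classes was not fixed. Without vehicle replicate 3 the H3 median was -0.91 and that of H2A -0.96. The H1 median was lower than that of H3 without TP-3654 replicate 2 (-2.10 against -1.74), with limma-voom (-1.39 against -1.27) and with the replicate block (-1.33 against -1.28).

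Hist1h3e (chr13:23561475-23562385), whose promoter is printed above, stood at 1.46, 1.17 and 2.84 CPM in vehicle and at 0.370, 0.581 and 0.307 CPM with TP-3654. All 3 treated libraries were lower than every vehicle library. Its log2 fold change was -2.09 (SE 0.49, edgeR FDR = 0.099), the lowest of any histone gene tested, and it ranged from -2.41 to -1.62 as each library was left out. These values rest on 8, 15 and 6 counts in TP-3654 replicates 1 to 3. Hist1h3e also shared 84.4% of its 31-mers with another locus, so its reads could belong in part to other loci. Hist1h3g, with a stem-loop form of its own, stood at 1.497, 1.08 and 1.79 CPM against 0.509, 0.658 and 0.153 CPM, also without overlap. Its log2 fold change was -1.69 (SE 0.51, edgeR FDR = 0.171). It had 3 counts in TP-3654 replicate 3 and shared 60.2% of its 31-mers with another locus. Hist1h3c stood at 1.10, 1.71 and 2.43 CPM against 0.648, 1.16 and 0.358 CPM, and here TP-3654 replicate 2 reached into the vehicle range (-1.24, SE 0.50, edgeR FDR = 0.259).

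H2A genes, which pair with H2B in the outer parts of the nucleosome, summed to 35.2, 29.5 and 46.2 CPM in vehicle and to 15.4, 24.1 and 11.9 CPM with TP-3654. The groups did not overlap. Of 15 tested, 11 were lower at an unadjusted p under 0.05 and the median was -1.14. Hist1h2ao (chr13:21810367-21810918) stood at 5.04, 4.28 and 4.99 CPM in vehicle against 1.53, 2.83 and 1.74 CPM. The vehicle libraries lay close together and well above the treated ones, with a log2 fold change of -1.22 (SE 0.31, edgeR FDR = 0.122). Hist1h2af stood at 1.97, 1.40 and 2.11 CPM against 0.648, 0.774 and 0.460 CPM (-1.52, SE 0.38, edgeR FDR = 0.118). Hist1h2ao and Hist1h2af shared 93.8% and 94.3% of their 31-mers with another locus, so their reads could belong in part to other H2A genes. Hist1h2ac shared 16.9% and stood at 5.24, 2.07 and 4.54 CPM against 1.62, 2.36 and 1.48 CPM, with overlapping groups (-1.11, SE 0.40, edgeR FDR = 0.220).

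H4 genes summed to 42.1, 47.5 and 69.6 CPM in vehicle and to 28.8, 33.4 and 20.3 CPM with TP-3654, with no overlap. Of 12 tested, 7 were lower at an unadjusted p under 0.05 and the median was -0.94. The H4 gene with the most counts, Hist1h4i (chr13:22040960-22041362), stood at 23.1, 21.4 and 28.3 CPM in vehicle and at 16.6, 15.6 and 8.84 CPM with TP-3654. Every treated library was lower than every vehicle library (-0.82, SE 0.24, edgeR FDR = 0.159). Hist1h4d stood at 3.19, 4.59 and 7.15 CPM against 1.39, 2.98 and 1.12 CPM (-1.43, SE 0.44, edgeR FDR = 0.177). Its groups did not overlap, but vehicle replicate 1 and TP-3654 replicate 2 lay close to each other. Hist1h4b stood at 2.25, 2.93 and 3.44 CPM against 1.43, 1.39 and 0.920 CPM, without overlap (-1.19, SE 0.34, edgeR FDR = 0.154). Hist1h4c, with 1.89, 1.89 and 4.77 CPM in vehicle and 1.20, 2.59 and 1.38 CPM with TP-3654, was highest in vehicle replicate 3, and TP-3654 replicate 2 lay above the other vehicle libraries. Its log2 fold change of -0.71 (SE 0.48) was -0.13 without vehicle replicate 3.

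H1 genes summed to 36.9, 25.8 and 56.8 CPM in vehicle and to 17.95, 27.8 and 9.40 CPM with TP-3654. TP-3654 replicate 2 lay above vehicle replicate 2. Of the 5 genes, all had a log2 fold change below 0, the median was -1.27, and 2 were lower at an unadjusted p under 0.05. Hist1h1c, a variant also made outside S phase, had the most counts of the class, at 27.4, 12.3 and 33.9 CPM in vehicle against 13.3, 17.3 and 6.34 CPM. Its groups overlapped (-0.99, SE 0.49, edgeR FDR = 0.359). Hist1h1e stood at 2.84, 3.29 and 6.46 CPM against 0.833, 2.44 and 1.07 CPM and did not overlap (-1.52, SE 0.49, edgeR FDR = 0.185). Hist1h1d stood at 3.19, 5.40 and 6.97 CPM against 1.53, 3.45 and 0.869 CPM, with TP-3654 replicate 2 just above vehicle replicate 1 (-1.39, SE 0.51, edgeR FDR = 0.229). Without vehicle replicate 3 the H1 median was -0.69, and without TP-3654 replicate 2 it was -2.10.

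H2B was the class with the smallest difference. Its genes summed to 65.7, 74.2 and 95.0 CPM in vehicle and to 45.9, 59.5 and 55.1 CPM with TP-3654. The groups did not overlap, and TP-3654 replicate 1, not replicate 3, was the lowest library. Of 18 tested, 3 were lower at an unadjusted p under 0.05, 3 had a log2 fold change below -1, and the median was -0.68. Hist1h2bc (chr13:23684199-23692480) stood at 14.9, 15.0 and 18.9 CPM against 7.87, 11.2 and 9.76 CPM, without overlap (-0.76, SE 0.20, edgeR FDR = 0.122). Unlike an intronless gene, it spans 8282 bases in RefSeq, while its longest GENCODE transcript has 1156 bases. Hist1h2bg stood at 7.29, 4.28 and 8.52 CPM against 3.29, 4.37 and 5.11 CPM, and vehicle replicate 2 lay within the treated range (-0.65, SE 0.31, edgeR FDR = 0.316). Hist1h2bj stood at 2.36, 5.49 and 5.32 CPM against 1.67, 2.56 and 1.94 CPM, with vehicle replicate 1 below TP-3654 replicate 2 (-1.09, SE 0.38, edgeR FDR = 0.209).

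Hist2h2be, an H2B gene of cluster 2, was the only histone gene tested whose log2 fold change was above 0. It stood at 14.3, 11.98 and 12.4 CPM in vehicle and at 16.3, 13.1 and 10.9 CPM with TP-3654. The groups overlapped, with the highest and the lowest library both in the treated group (0.06, SE 0.19, edgeR FDR = 0.888). As each library was left out the value ran from -0.10 to 0.18. Its annotated transcript runs 2192 bases past the stop codon, no stem-loop was found in it by the rule above, a poly(A) signal lies in its last 50 bases, and 2.8% of its 31-mers were shared with another locus.

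**Figure D2:**
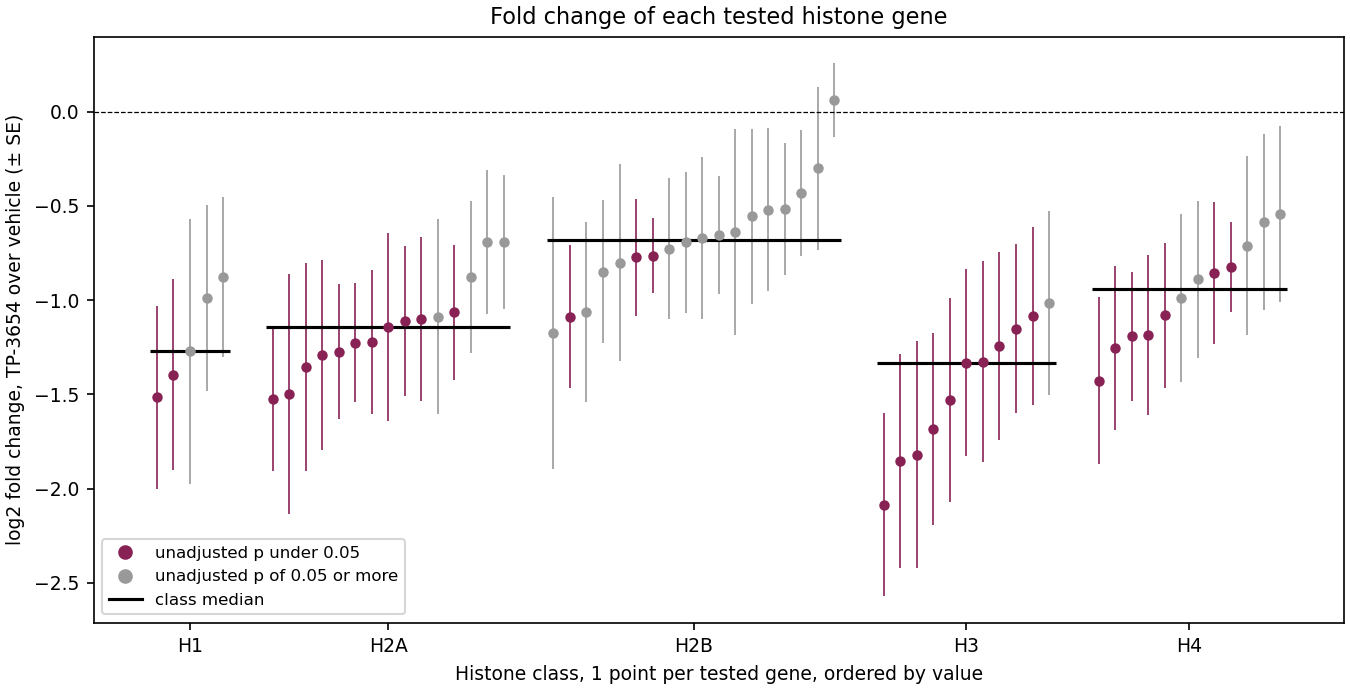
Log2 fold change of TP-3654 over vehicle (y axis, ± SE) of each of the 61 tested histone genes, by class (x axis) and in order of value within a class. Colour marks an unadjusted p under 0.05 and black lines are class medians. The H3 points all lie below -1, and Hist2h2be, at 0.06, is the single point above 0.

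The make-up of the histone counts differed in one library. H2B genes held 34.2%, 39.3% and 32.4% of the histone counts in vehicle, 40.5% and 38.7% in TP-3654 replicates 1 and 2, and 54.5% in TP-3654 replicate 3. In that library the shares of H1 (9.30%), H2A (11.7%), H3 (4.30%) and H4 (20.1%) were each the lowest of the 6. It is the library that stood apart from its group over all genes. Its part in the class differences is seen by leaving it out: the medians were then -0.86 for H1, -0.997 for H2A, -0.79 for H2B, -1.24 for H3 and -0.94 for H4.

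**Figure D3:**
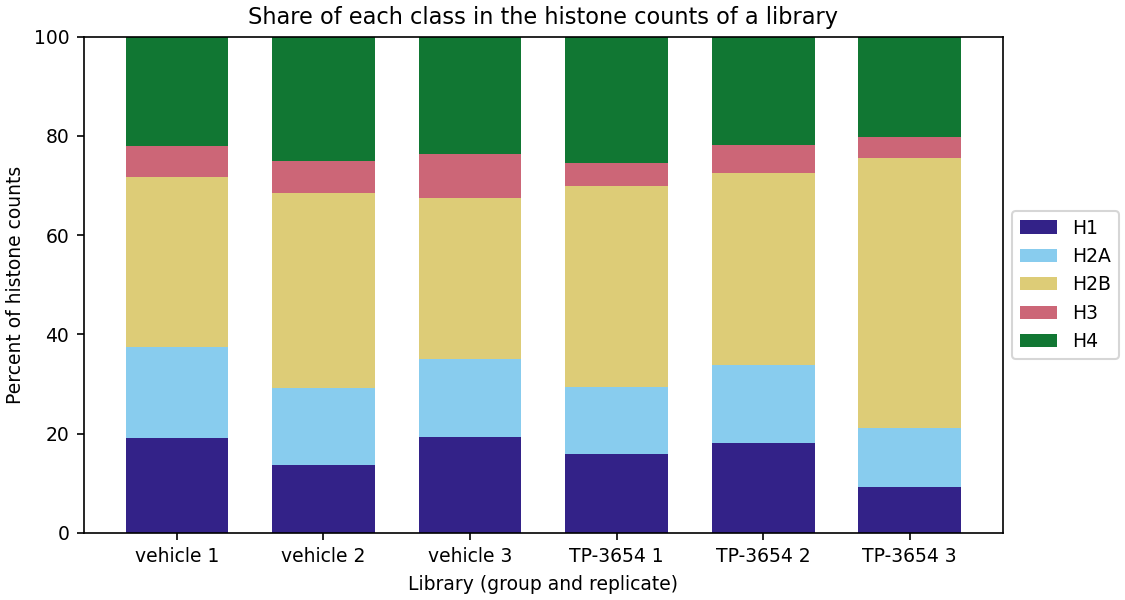
Percent of all histone counts (y axis, 0 to 100) taken by each class in each of the 6 libraries (x axis). The H2B segment spans 32.4% to 40.5% in 5 libraries and 54.5% in TP-3654 replicate 3.

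H2A and H2B genes of cluster 1 often start head to head. Among genes with upstream sequence in the RefSeq table, 8 pairs of an H2A and an H2B gene started on opposite strands 164 to 249 bases apart. The 2 genes of a pair share the sequence between them. Hist1h2bc and Hist2h2be, which lie next to Hist1h2ac and Hist2h2ac, had no such upstream sequence and are not among the pairs. The Hist1h2bg promoter printed above is one such stretch, read from the H2B side. The octamer in it also lies in the window of its partner Hist1h2ae. In all 8 pairs the H2A gene had the lower log2 fold change, with a median of -1.18 for the H2A and -0.60 for the H2B genes. Summed over the 8 pairs, H2A over H2B stood at 0.780, 0.576 and 0.610 in vehicle and at 0.566, 0.616 and 0.257 with TP-3654. The treated value that lay far below the others was that of TP-3654 replicate 3. Without it the H2A gene was the lower of the pair in 6 of 8, and the medians were -1.06 and -0.91. The pairs were found by position after the class values had been seen.

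**Figure D4:**
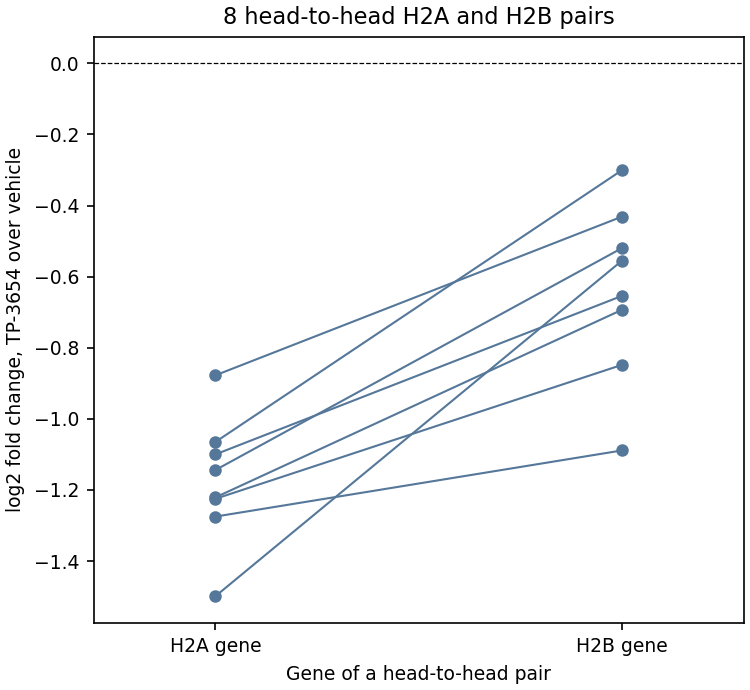
Log2 fold change of TP-3654 over vehicle (y axis) of the H2A and the H2B gene of 8 head-to-head pairs, each pair joined by a line. All 8 lines rise from H2A to H2B with all 6 libraries, and 6 of 8 did so without TP-3654 replicate 3.

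The clusters lie on 4 chromosomes. Cluster 1, on chromosome 13, held 52 of the genes. Its sum was 194 ± 53.4 CPM in vehicle and 99.96 ± 24.0 CPM with TP-3654 (SD, n = 3), 1.94-fold lower, without overlap. The median of its 52 genes was -1.09, and 30 were lower at an unadjusted p under 0.05. Gaps of over 100 kb split off stretches of 17 genes (chr13:21715711-21837530), 5 genes (chr13:22035122-22043658) and 28 genes (chr13:23531044-23764412), beside the single genes Hist1h2ba and Hist1h2al. Hist1h2al (chr13:51200084-51203066) is annotated as a transcribed pseudogene and shared 81.9% of its 31-mers with another locus. It is counted among the tested H2A genes. The 3 stretches had medians of -1.08, -1.09 and -1.11, and their sums had log2 ratios of -0.97, -0.87 and -0.99.

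Cluster 2 (chr3:96219885-96270192) summed to 22.3, 21.1 and 29.7 CPM in vehicle and to 21.5, 20.63 and 14.5 CPM with TP-3654, with overlap and a log2 ratio of -0.37, or -0.20 without vehicle replicate 3. Hist2h2be held more than any other gene in that sum. The other 5 of its tested genes had log2 fold changes between -1.82 and -0.69. Hist2h3c2 stood at 0.591, 0.585 and 1.88 CPM against 0.370, 0.271 and 0.204 CPM, without overlap (-1.82, SE 0.60, edgeR FDR = 0.194). Without vehicle replicate 3 its log2 fold change was -1.04. Hist2h2ac stood at 0.985, 0.901 and 1.70 CPM against 0.648, 0.581 and 0.204 CPM, also without overlap (-1.29, SE 0.51, edgeR FDR = 0.252). Groups overlapped for the other 3 tested. Their log2 fold changes were -1.08 for Hist2h3c1, -1.06 for Hist2h2bb and -0.69 for Hist2h2aa1, and each shared all of its 31-mers with another locus. Hist2h2ab, Hist2h3b and Hist2h4 were too low to test. Hist2h2ab had 8, 8 and 11 counts in vehicle and 3, 3 and 0 with TP-3654, while Hist2h3b and Hist2h4 each had 31 counts in vehicle replicate 3 and at most 16 in any other library.

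Cluster 3 (chr11:58948911-58955192) and cluster 4 (chr6:136803993-136804431) hold few genes. Hist3h2a stood at 3.94, 2.52 and 4.35 CPM in vehicle against 2.36, 3.02 and 1.28 CPM, with overlap (-0.69, SE 0.38, edgeR FDR = 0.372). Hist3h2ba stood at 1.58, 1.08 and 2.29 CPM against 0.925, 1.51 and 0.358 CPM, also with overlap (-0.80, SE 0.52, edgeR FDR = 0.444). Hist3h2bb, annotated as a transcribed pseudogene, had 6 counts in each vehicle library and 5, 14 and 5 with TP-3654, and was not tested. Hist4h4, the only gene of cluster 4, stood at 0.709, 0.360 and 0.825 CPM against 0.463, 0.426 and 0.409 CPM (-0.54, SE 0.47, edgeR FDR = 0.550). Vehicle replicate 2 was its lowest library.

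The genes were also grouped by their annotated 3′ end. For 22 genes the annotation extends at least 100 bases past the stem-loop, and their sum had a log2 ratio of -0.96. For 21 genes it ends within 100 bases of the stem-loop, and the log2 ratio was -0.97. For 14 genes the annotation has no transcript, no coding model or nothing after the stop codon, so that no stem-loop could be found, and the log2 ratio was -0.98. The other 8 genes have 1 to 2192 annotated bases after the stop codon in which no stem-loop was found. Among them are Hist2h2be and Hist1h2bc, and the sum of the 8 had a log2 ratio of -0.51. Hist1h2af and Hist1h2ah have 1 and 2 such bases, too few for a stem-loop of 16 bases. Hist2h3b and Hist1h1a have 37 and 48, so that a stem-loop could also lie past the annotated end. A poly(A) signal (AATAAA or ATTAAA) in the last 50 bases was present in 16 genes, which had a log2 ratio of -0.70 against -1.002 for the other 49. Hist2h2be is in both the group of 8 and the group of 16, at a mean of 12.89 CPM in vehicle and 13.45 CPM with TP-3654. The 8 genes summed to 41.0 and 28.8 CPM and the 16 to 91.1 and 56.0 CPM. That 1 gene thus draws both log2 ratios toward 0. These differences between groups of genes were not tested.

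Shared sequence was common among the genes, with a median of 61.1% of a gene's 31-mers found at another locus. The 24 genes with at most 50% shared had a median of -0.85, and 11 of the 23 tested were lower at an unadjusted p under 0.05. The 40 genes with more had a median of -1.12, and 22 of 38 were lower by that measure. The lower level with TP-3654 was thus seen in both groups of genes.

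The other histones and the factors around histone supply were read in the same fit, where 0 genes of any list passed the adjusted edgeR test. The replication-independent histones, whose mRNAs are mostly polyadenylated, had a median of -0.12. At an unadjusted p under 0.05, 2 of 11 were lower and 0 higher, beside 6.84% of all genes lower and 10.2% higher. Cenpa, the centromeric H3, stood at 169, 153 and 168 CPM in vehicle against 123, 98.4 and 57.0 CPM, without overlap (-0.81, SE 0.25, edgeR FDR = 0.197). H2afv, an H2A.Z gene, stood at 121, 113 and 132 CPM against 105, 107 and 81.3 CPM (-0.32, SE 0.13, edgeR FDR = 0.268). The macroH2A gene H2afy2 was higher in every treated library (0.55, SE 0.25, edgeR FDR = 0.303).

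Of 24 genes for histone mRNA transcription and 3′ processing, 1 was lower and 0 higher at an unadjusted p under 0.05. Beside this, 6.84% of all genes were lower and 10.2% higher, and the list median was 0.03. Ncbp2, a subunit of the cap-binding complex, had a log2 fold change of -0.24 (SE 0.11, edgeR FDR = 0.281). The H4 promoter factor Hinfp stood at 0.28 (SE 0.14) and Casp8ap2, a component of histone locus bodies, at 0.30 (SE 0.17). Of 17 histone chaperone and supply genes, 1 was lower and 0 higher by the same measure, and the median was 0.08. That gene was the H3-H4 chaperone Asf1b, at 101, 91.1 and 80.0 CPM in vehicle against 79.4, 71.1 and 51.4 CPM (-0.43, SE 0.17, edgeR FDR = 0.252). The importin Ipo4, which carries histones to the nucleus, stood at 0.37 (SE 0.17) and the histone acetyltransferase Hat1 at -0.18 (SE 0.10).

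Genes of DNA replication and of mitosis were counted in the same way, and the difference between these lists was not tested. Of 30 replication genes, 0 were lower and 1 higher at an unadjusted p under 0.05, beside 6.84% and 10.2% of all genes. Their median was 0.01. That one was Pole, the catalytic subunit of DNA polymerase epsilon (0.36, SE 0.15, edgeR FDR = 0.280). The polymerase clamp Pcna stood at 0.32 (SE 0.17) and Pola1, of the primase complex, at 0.20 (SE 0.12). Of 26 mitosis genes, 13 were lower and 0 higher, and the median was -0.38. Their sum ran from 4652 to 4970 CPM in vehicle and from 3270 to 4502 CPM with TP-3654. Kif2c, a microtubule-depolymerising kinesin, was lower in every treated library (-0.52, SE 0.12, edgeR FDR = 0.097), as were Cdc25c (-0.67, SE 0.19) and Cdc20 (-0.56, SE 0.16). Whether the mitosis values have a part in the histone values was not tested.

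**Figure D5:**
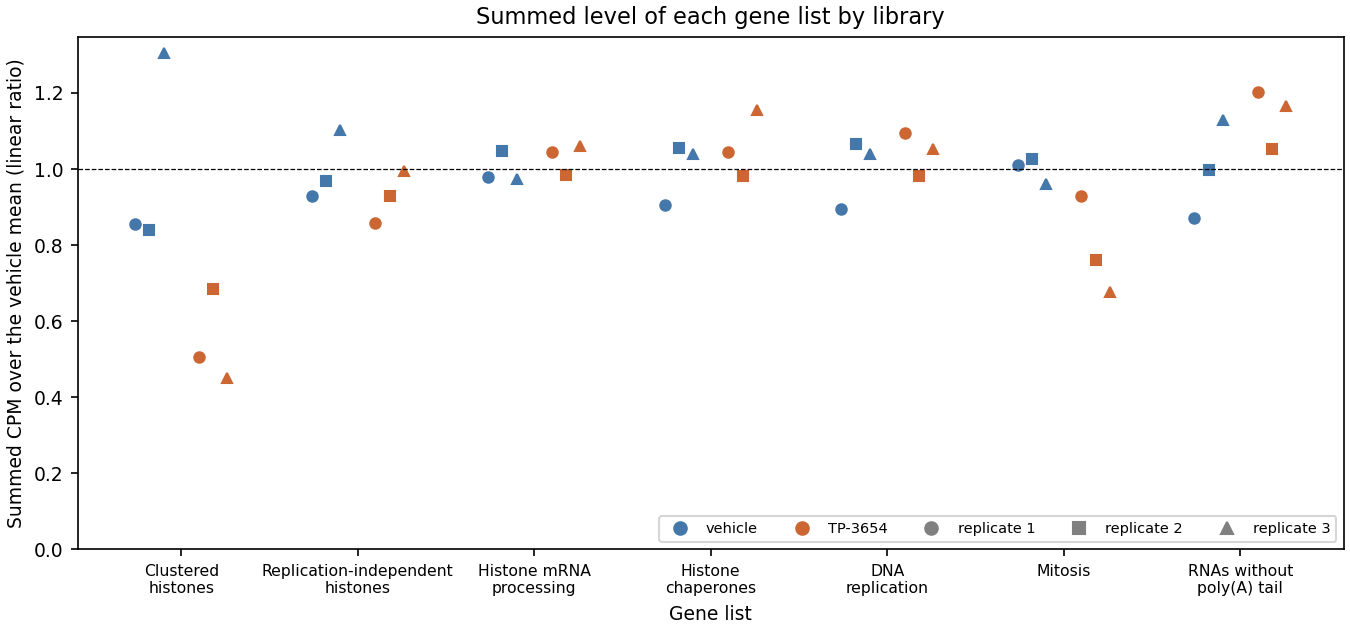
Summed CPM of each gene list divided by its vehicle mean (y axis, linear ratio from 0), by library, with colour for the group and marker shape for the replicate. Of the 7 lists plotted, the groups do not overlap for the clustered histones and for the mitosis genes, and in the histones vehicle replicate 3 stands above the other 5 libraries.

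Because poly(A) selection bears on histone counts, 56 other RNAs without a poly(A) tail were read as well. Of these 26 were tested, and 0 were lower and 3 higher at an unadjusted p under 0.05. The share higher was near the 10.2% of all genes, and 6.84% of all genes were lower. The median of the 26 was 0.21. Summed, the 56 ran from 51.8 to 67.1 CPM in vehicle and from 62.6 to 71.4 CPM with TP-3654. The 3 higher were the small nucleolar RNAs Snord53 (1.35, SE 0.43), Snord37 (1.07, SE 0.38) and Snord19 (0.61, SE 0.21), which are encoded in introns of other genes. Reads there can come from RNA of those genes, so they are no measure of what passed the selection. RNAs of the list with genes of their own were not all higher with TP-3654. Of these, 4 were chosen after their values were seen. Rmrp, the RNA of RNase MRP, had 2, 11 and 53 counts in the vehicle libraries and 0 in each TP-3654 library. Rnu3a had 9, 20 and 23 counts against 2, 10 and 5. Scarna2 had 5, 4 and 22 counts against 3, 4 and 5, and Terc had 1, 3 and 9 against 1, 3 and 6. All 4 were highest in vehicle replicate 3, but they were picked with these values in view, so this is no result about the list. Of its 26 tested RNAs, 21 had a log2 fold change above 0 and 5 below 0, beside 52.1% of all genes above 0. The part of these 4 RNAs in the histone values, and that of the carry-over of RNA without a tail, was not tested.

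Markers of the sorted cells and of other cells were read in the same fit, and 0 passed the adjusted edgeR test. Of 9 LSK and stem or progenitor markers, 0 were lower and 5 higher at an unadjusted p under 0.05, beside 6.84% and 10.2% of all genes. Kit, one of the sort markers, stood at 365, 377 and 375 CPM in vehicle against 436, 492 and 581 CPM. Hlf, a stem cell transcription factor, had a log2 fold change of 0.92 (SE 0.15, edgeR FDR = 0.074), with Mecom at 1.04 and Procr at 0.95. Not all markers rose, and 2 of the 9 were below 0. Slamf1 was lower in every treated library (-0.35, SE 0.23), and Cd48 stood at -0.09 (SE 0.14). Ly6a, the gene of the sort marker Sca1, stood at 0.28 (SE 0.19), with overlap. The sum of the 9 ran from 1649 to 2012 CPM in vehicle and from 2023 to 2411 CPM with TP-3654, without overlap. Of 10 mature neutrophil and monocyte markers, 7 were tested, all 7 below 0 in log2 fold change, and their sum ran from 86.0 to 266.5 CPM in vehicle and from 51.8 to 99.6 CPM with TP-3654. The highest sum was in vehicle replicate 1, which held 39.0 CPM of S100a8 against 0.450 to 9.21 CPM elsewhere. The granule genes Ngp and Camp were at 0 in vehicle replicates 2 and 3. The 7 erythroid markers found ran from 274 to 582 CPM in vehicle and from 294 to 917 CPM with TP-3654, with overlap. Klf1 was at 5.88 CPM in TP-3654 replicate 3 and at 46.3 to 97.7 CPM in the other libraries. The 10 lymphoid markers ran from 255 to 310.5 CPM and from 169 to 249 CPM, without overlap, and Nkg7 held most of that sum. The 6 megakaryocyte markers ran from 291.5 to 341.5 CPM and from 318 to 360.4 CPM. Itga2b held most of that sum and was higher in every treated library (0.36, SE 0.15). The other 4 tested were below 0, among them Pf4 (-0.73, SE 0.41) and Vwf (-0.435, SE 0.30), all with overlap. The part of these markers in the histone values was not tested.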

How the data were processed

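The authors deposited whole-number read counts per Entrez gene, 1 column per library and without normalization, and a table that compares the groups. Per the file headers, the authors' table gives a log2 fold change, a raw p-value and an adjusted p-value per gene. The submitters' processing notes name HISAT2 2.1.0, SAMtools 1.9.0 and DESeq2, with mm10 and GRCm38 as builds. How reads were counted, with which annotation and on which strand, is not given in the sources used here, so overlapping genes (4 of the 65 histone genes overlap another gene) and near-identical copies are uncertain.

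The deposited counts were tested with edgeR 4.0.16 in R 4.3.3, with TMM factors, filterByExpr, a robust quasi-likelihood fit and Benjamini-Hochberg adjustment over all 13149 genes kept, called under 0.05. CPM values use TMM-scaled library sizes. Log2 fold changes are TP-3654 over vehicle, and their SE was derived from the F statistic. Sums by class and cluster, list medians and promoter or 3′ features are descriptions without a test. RefSeq lists 70 loci with a name of these clusters, of which 5 had no row in the counts, and 2 histone genes of the authors' table were likewise without counts. The RefSeq table uses newer symbols, so 10 genes were matched through older ones. The members, the lists and the rule for named genes were chosen with earlier results of these data known. The rule named, per class, the 3 genes with the highest mean CPM and the 2 with the smallest edgeR p, all genes of clusters 2 to 4, and up to 3 genes per companion list. Kit, Slamf1, Cd48, Ly6a, S100a8, Ngp, Camp, Klf1, the 8 head-to-head pairs and 4 RNAs without a tail lie outside it, picked once their values were known.

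Alternatives were DESeq2 1.42.0, limma-voom (limma 3.58.1), other scalings and filters, a fit that was not robust, a replicate block, each library left out, and subsets of the genes. The edgeR step was tested on simulated counts. Depth limits the genes near 3 counts, or 0.119 to 0.146 CPM.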

Additional observations from a re-analysis of the deposited data

How the results depend on the processing

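The direction of the histone sums in all 5 classes and of all 5 class medians was the same under every alternative run. In edgeR 0 histone genes were called under each scaling and filter, with the replicate block and with each library left out, whereas DESeq2 called 5 lower. The count lower at an unadjusted p under 0.05, 33 in the edgeR fit, was 12 when genes needed a mean of 50 counts, which leaves fewer genes tested. It ran from 10 to 40 as each library was left out, and the median over the tested histone genes from -1.32 to -0.68. The lowest count and the median nearest 0 both came without vehicle replicate 3. Among genes with at most 50% of 31-mers shared, cluster 2 turned direction, with a median of 0.062 and a log2 ratio of its sum of 0.012, since Hist2h2be is then its only tested gene. Hist2h2be itself ran from -0.098 (TP-3654 replicate 1 left out) to 0.18 (TP-3654 replicate 3 left out), with -0.0025 when vehicle replicate 2 was left out. Using only the 55 genes named in the authors' table, an alternative chosen after seeing the data, left 31 lower.

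The labels do not say that the replicate numbers pair the libraries. Correlations of deviations between same-numbered libraries were -0.012, -0.015 and 0.031. Between libraries of different numbers they ran from -0.041 to 0.053. These values showed no pairing, but with 3 libraries a group they cannot exclude it. With the replicate number as a block, 29 histone genes were lower at an unadjusted p under 0.05 and 0 were called.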
